A study of Caenorhabditis elegans with 2 samples.

Results

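MicroRNA genes of Caenorhabditis elegans other than mir-51 to mir-56 were examined for peaks of a CEH-40 fusion protein. The set holds every gene of biotype miRNA in the Ensembl annotation except those 6, which left 255 of 261 microRNA genes, out of 46926 annotated genes of all kinds. Membership used the annotation alone, and no peak value, but the set was chosen with earlier results of these data known. Of the 255 genes, 103 lay within a protein-coding gene (74 on its strand and 29 on the opposite strand) and 152 lay outside protein-coding genes. A tRNA gene start lay within 1 kb of 7 of the microRNA genes and a snoRNA gene start within 1 kb of 8 others. No snRNA or rRNA gene start lay that close to any of them.

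The peaks came from chromatin immunoprecipitation with sequencing (ChIP-seq) on whole young adult worms 76 h old, synchronised by starvation at the L1 stage after bleaching. Both samples were biological replicates of strain OP232, in which the transgene wgIs232 adds CEH-40 tagged with TY1, EGFP and FLAG, together with a rescuing copy of unc-119, to worms carrying unc-119(ed3). The immunoprecipitation of sonicated chromatin used an anti-GFP antibody. All samples form 1 group of 2 replicates, so no condition was compared and no test was run. Whole animals mix all cell types, and a peak in few cells and weak occupancy in many cannot be told apart. No peak list from untagged worms was analysed here.

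CEH-40 is a homeodomain protein of the PBC class, relatives of fly Extradenticle that bind DNA together with Hox proteins. MicroRNAs are short RNAs cut from a hairpin in a longer primary transcript. Loaded on an Argonaute protein, they repress messenger RNAs that pair with the seed, bases 2 to 8 of the mature strand. In C. elegans the lin-4 and let-7 microRNAs time larval development, the mir-35 family acts in the embryo, and others act in single cell types, such as lsy-6 in taste neurons.

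The mature strands below are those of microRNA genes on which the peak results turn, with close relatives that share a seed. Sequence is that of RefSeq's WBcel235 genome (the same assembly as ce11), read at the mature arms annotated by Ensembl, 5′ to 3′, and capitals mark the seed. The first 4 share the seed of mir-45, and the 3′ arms of mir-44 and mir-45 are the same 21 bases, cut from hairpins at separate places. Of the 4, mir-45 had a peak past the authors' threshold and mir-44, mir-61 and mir-247 had none.
mir-45, 3′ arm: uGACUAGAgacacauucagcu
mir-44, 3′ arm: uGACUAGAgacacauucagcu
mir-61, 3′ arm: uGACUAGAaccguuacucauc
mir-247, 3′ arm: uGACUAGAgccuauucucuucu
The next 3 share the seed of mir-239.2, which had such a peak, while mir-239.1 and mir-238 had none.
mir-239.2, 5′ arm: uUUGUACUacacaaaaguacug
mir-239.1, 5′ arm: uUUGUACUacacauagguacugg
mir-238, 3′ arm: uUUGUACUccgaugccauucaga
mir-356.1 had a peak, and mir-233 and mir-87, which share its seed, had none.
mir-356.1, 5′ arm: uUGAGCAAcgcgaacaaauca
mir-233, 3′ arm: uUGAGCAAugcgcaugugcggga
mir-87, 3′ arm: gUGAGCAAaguuucaggugugc
mir-392 and mir-4929 had a peak and, among the genes studied here, share these seeds with no other.
mir-392, 3′ arm: uAUCAUCGaucacgugugauga
mir-4929, 3′ arm: aAUGCACCacaucuuacgcuca
The microRNAs of developmental timing follow, and none of them had such a peak. Only 8 of the 255 genes had one (3.14%, beside 3.07% of all genes). Absence at these genes and at the relatives above is therefore the usual case. The let-7 seed comes first, then that of lin-4.
let-7, 5′ arm: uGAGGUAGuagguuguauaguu
mir-48, 5′ arm: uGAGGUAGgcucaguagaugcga
mir-84, 5′ arm: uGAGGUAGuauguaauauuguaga
mir-241, 5′ arm: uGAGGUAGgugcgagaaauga
lin-4, 5′ arm: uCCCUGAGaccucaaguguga
mir-237, 5′ arm: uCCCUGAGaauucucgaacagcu

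A mature arm was annotated for 254 of the 255 genes, all but F39B1.3. Over 446 arms, 45 seeds occurred in 2 or more of the genes. The widest were the seed of mir-35 to mir-42 in 8 genes, and the seeds of mir-80 and of mir-72 in 6 genes each. No seed shared by 2 or more genes held more than 1 gene with a thresholded peak. Only 8 of the 255 genes had such a peak (3.14%, beside 3.07% of all genes). At so low a share such pairs would be rare, and their absence says nothing particular about seeds.

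The peak lists used were of 2 kinds, both made by the authors from the 2 replicates. The thresholded list holds 867 peaks that pass an irreproducible discovery rate (IDR) of 0.01, which scores whether a peak keeps its rank from one peak set to another, and 840 of them lie on nuclear chromosomes. The ranked list, from which the thresholded peaks were drawn, holds 103201 peaks, of which 1014 pass that threshold. Each peak carries the authors' signal value, which has no stated unit, and serves here only for ranking inside that list. A gene was counted when a peak summit lay within 1 kb of a start. The start of a microRNA gene is here the 5′ end of the annotated hairpin, and only 7 of the 255 genes have a further start annotated. The true start of the primary transcript can lie further away. For other genes every annotated transcript start was used, so a gene with several starts was searched over a wider total window. The part of this in the comparisons with other gene classes was not tested.

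Of the 255 microRNA genes, 8 had a thresholded summit within 1 kb, a share of 3.14% (Wilson 95% interval 1.6 to 6.07%). Over all 46926 genes the share was 3.07%, over protein-coding genes 2.75%, and over all genes but these microRNA genes and the piRNA genes 4.27%. The share of microRNA genes is thus near the background, and the count says nothing particular to them. The 8 genes were mir-55b, mir-4929, mir-354, mir-356.1, mir-356.2, mir-45, mir-392 and mir-239.2, served by 7 distinct peaks. mir-55b lies antisense over mir-55, so its peak is one that the mir-51 group also uses. Without mir-55b, 7 of 254 genes had a summit, or 2.76%. With all 261 microRNA genes counted, mir-51 to mir-56 included, the share was 4.6%. The median distance from a microRNA gene to the nearest thresholded summit was 40.9 kb, and 202 of the 255 genes lay over 10 kb from one.

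Within protein-coding genes, 3 of 103 microRNA genes had a thresholded summit (2.91%, interval 0.995 to 8.22%), and outside them 5 of 152 (3.29%, interval 1.41 to 7.47%). The 3 within were mir-55b, mir-4929 and mir-354, each on the strand of its host, where 3 of 74 genes make 4.05%. On the opposite strand there were 0 of 29, which allows a share of up to 10.3% when a count of 0 is taken to allow 3, the limit used for every count of 0 here (Wilson upper limit 11.7%). These intervals overlap widely and cover counting error only.

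Small RNA neighbours were flagged because a tRNA or snoRNA gene close by can carry a peak of its own. Of the 15 microRNA genes with a tRNA or snoRNA start within 1 kb, 1 had a thresholded summit, mir-239.2. Its snoRNA neighbour C34E11.20 starts 716 bp from the hairpin and 1212 bp from the summit. None of the 7 genes near a tRNA had one, a count that allows a share of up to 42.9%. Among the 240 genes without such a neighbour, 7 had a thresholded summit (2.92%), and 4 of 142 did among those that also lay outside protein-coding genes (2.82%).

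Beyond the 1 kb limit, a further 7 microRNA genes had their nearest thresholded summit at 1 to 2 kb, and for 4 of these the summit lay at a tRNA gene. The summit 1392 bp from mir-237, a lin-4 relative, lay 14 bp from the start of tRNA gene F22F1.t4 and had a signal of 53.0. The summit 1427 bp from mir-4812 lay 5 bp from tRNA gene F39B1.t2 and had a signal of 69.9. mir-1819 and mir-2212 shared a summit of signal 94.8 that lay 27 bp from tRNA gene R11.t1. The other 3 were mir-239.1, whose summit was that of mir-239.2, mir-353, whose summit lay 165 bp from the start of protein-coding tmem-39, and mir-72, whose summit lay 1639 bp away with no closer gene start. Within 2 kb, 15 of 255 microRNA genes had a thresholded summit (5.88%), beside 4.51% of all genes. Whether the tRNA genes carry the signal at these 4 microRNA genes was not tested.

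**Figure D1:**
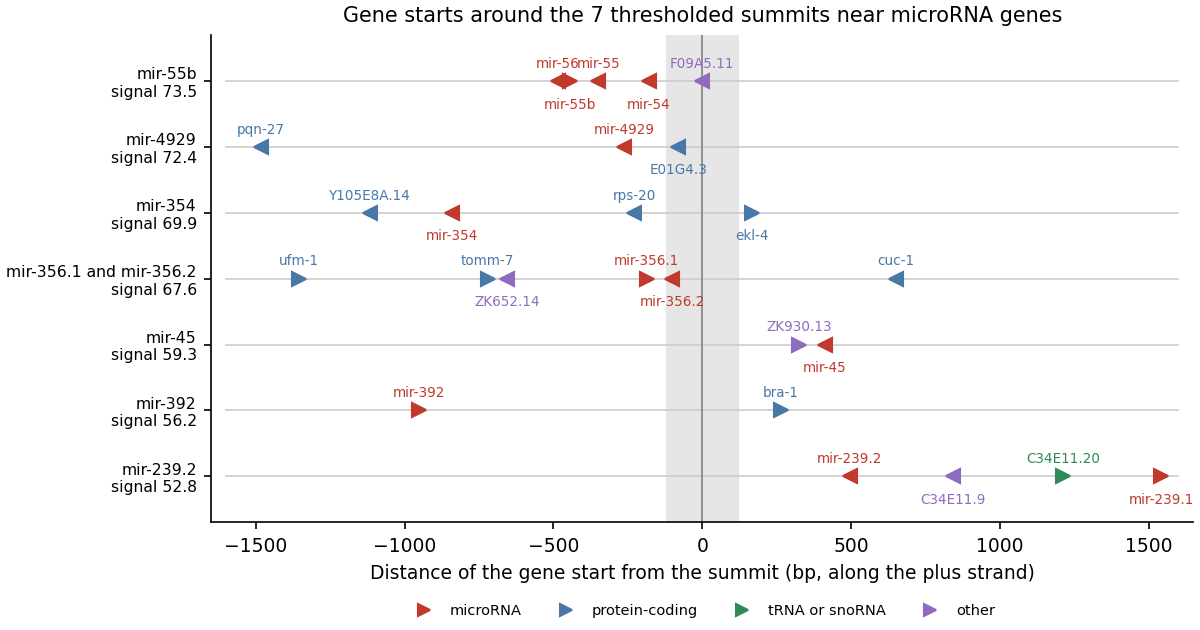
Gene starts around the 7 thresholded summits near microRNA genes, 1 line per peak with the authors' signal beside its name. The x axis is the distance of each gene start from the summit in bp along the plus strand, arrowheads give the strand, colours the gene class, and the grey band is the width of the peak. The start nearest to the summit is a microRNA hairpin for the peaks of mir-356.2 (100 bp) and mir-239.2 (496 bp) and another gene's start for the other 5.

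The 7 peaks differed in what else lay beside them. The nearest gene start was that of a microRNA for 2 peaks, of a protein-coding gene for 3 and of another noncoding RNA gene for 2. The 3 peaks nearest to a protein-coding start were those of mir-4929, mir-354 and mir-392.

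At mir-4929 the peak (chrII:13462006-13462245) had a signal of 72.4, with matched signals of 28.1 in replicate 1 and 40.6 in replicate 2. The summit lay in an intron of E01G4.3, the host gene. It was 81 bp upstream of the nearest annotated start of that gene and 262 bp upstream of the hairpin. At mir-354, whose hairpin overlaps coding sequence of rps-20, a gene for a ribosomal protein of the small subunit, the signal was 69.9. The matched signals were 22.7 in replicate 1 and 48.6 in replicate 2, the widest gap among the 7 with replicate 2 higher. The summit was intergenic, 168 bp from the start of ekl-4 and 229 bp from that of rps-20, and 841 bp upstream of the hairpin. At mir-392 the peak (chrX:13598064-13598303) had a signal of 56.2, with 38.1 in replicate 1 and 17.8 in replicate 2. The summit lay 265 bp from the start of bra-1 and 953 bp downstream of the hairpin start, just inside the 1 kb limit.

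The peaks at mir-356 and mir-239.2 were those with a hairpin as the nearest start. mir-356.1 and mir-356.2 are hairpins on opposite strands of 1 stretch on chromosome III and share 68 bp. Their peak had a signal of 67.6, with 31.7 in replicate 1 and 35.4 in replicate 2. The summit lay 100 bp upstream of the mir-356.2 hairpin and 187 bp downstream of the start of mir-356.1. Protein-coding cuc-1 and tomm-7 start on either side, cuc-1 at 651 bp. At mir-239.2 the signal was 52.8, the lowest of the 7, with 32.6 in replicate 1 and 30.3 in replicate 2. The summit lay 496 bp downstream of the hairpin start, on the side away from mir-239.1 and the snoRNA gene C34E11.20.

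Both remaining peaks lay beside noncoding RNA genes of other kinds. At mir-45 (chrII:11880506-11880745) the signal was 59.3, with 27.3 in replicate 1 and 32.8 in replicate 2. The summit lay 413 bp downstream of the hairpin start and 326 bp from the start of ZK930.13. The mir-55b peak (chrX:13145153-13145392) had the highest signal of the 7, 73.5, with 45.4 in replicate 1 and 30.5 in replicate 2. It lay in an intron of F09A5.3, 2 bp from the start of noncoding F09A5.11, 179 bp from mir-54 and 443 bp from mir-55b.

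None of the 7 was a leading peak of the thresholded list. By signal they ranked from 328 to 747 among the 840 nuclear peaks, whose median signal was 67.5, and 4 of the 7 had a signal above that median. Their -log10 IDR ranged from 2.15 at mir-392 to 2.70 at mir-354, with 2 as the threshold and 5 as the highest value in the list. That IDR comes from the ranked list the thresholded list follows, whose matched peaks equal no peak of either replicate's own list. A second ranked list does hold the replicates' own peaks, and the conservative list follows it. In that list the -log10 IDR was 2.03 at mir-354, 2.18 at mir-45, 2.33 at mir-239.2, 2.43 at mir-4929, 2.54 at the mir-356 pair and 2.62 at mir-55b, but 0.88 at mir-392. Agreement of the replicates thus passed the threshold at 6 of the 7 peaks. Replicate lists made alone held few of them: the list of replicate 1 had only the mir-45 peak, and that of replicate 2 only the mir-354 peak. Over all genes these lists reached 1.1% and 1.12% of genes, against 1 of 255 microRNA genes in each. The authors' conservative list, which reached 2.61% of all genes, held 6 of the 7 peaks and lacked that of mir-392.

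The conservative list added 1 peak, which served mir-1829.3 and F39B1.3, both in introns of piki-1. This peak (chrX:15236138-15236377) had a signal of 62.4, with 30.3 in replicate 1 and 44.4 in replicate 2. Its -log10 IDR of 1.97 lay just under the threshold of the other list, while between the replicates it was 2.65. The summit lay 165 bp from the start of mir-1829.3 and 134 bp from that of tRNA gene F39B1.t1. The thresholded genes and those just outside overlapped in signal: the lowest thresholded signals were 52.8 at mir-239.2 and 56.2 at mir-392, while genes outside reached 62.4.

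The sequences of 3 of the peaks show what surrounds a hairpin or summit. They are the plus strand of RefSeq's WBcel235 genome. In the peak of mir-356.1 and mir-356.2 (chrIII:7860214-7860453, 240 bases), capitals mark the 43 bases at its left end that belong to the hairpin of mir-356.1. In those of mir-392 (chrX:13598064-13598303) and mir-239.2 (chrX:11790783-11791022), capitals mark matches to the motifs searched, GAGAGA on the minus strand in the former and TGACAG on the minus strand in the latter.
mir-356 peak: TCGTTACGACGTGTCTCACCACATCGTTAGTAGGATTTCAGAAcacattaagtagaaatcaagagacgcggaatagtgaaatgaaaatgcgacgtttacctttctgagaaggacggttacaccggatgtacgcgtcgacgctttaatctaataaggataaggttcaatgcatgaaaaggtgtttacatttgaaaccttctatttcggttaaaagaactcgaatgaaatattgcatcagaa
mir-392 peak: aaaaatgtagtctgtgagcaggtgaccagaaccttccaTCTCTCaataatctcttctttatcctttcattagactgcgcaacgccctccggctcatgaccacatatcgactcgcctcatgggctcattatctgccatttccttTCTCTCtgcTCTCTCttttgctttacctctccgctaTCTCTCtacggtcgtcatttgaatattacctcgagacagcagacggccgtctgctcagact
mir-239.2 peak: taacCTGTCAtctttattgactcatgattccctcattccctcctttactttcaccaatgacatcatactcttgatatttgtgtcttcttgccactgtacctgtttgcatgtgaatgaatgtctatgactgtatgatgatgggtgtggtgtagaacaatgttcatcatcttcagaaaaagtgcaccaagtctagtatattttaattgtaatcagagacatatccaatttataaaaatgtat

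Letters of 5 motifs were searched on both strands in 200 bp centred on each summit. They were the PBC-Hox motif TGATNNAT, bound by PBC and Hox proteins together, the MEIS motif TGACAG of their partners, the Hox core motif TAATTA, the B box core motif GTTCGANNC from within tRNA genes, and the GAGA motif GAGAGA. None contains another, though matches can overlap. The PBC-Hox motif occurred in 1 of the 7 peaks, that of mir-45 (14.3%), beside 8.08% of 866 windows at all thresholded summits. The MEIS, Hox core and B box core motifs occurred in none of the 7 windows, beside 7.04%, 5.54% and 19.7% of all thresholded windows. The MEIS match of the mir-239.2 peak lies outside the 200 bp. The GAGA motif occurred in 3 of 7, those of mir-55b, mir-4929 and mir-392 (42.9%), beside 20.6%. The mir-392 window held 4 GAGA matches and the others 1 each. With 7 windows, a single match moves a share by 14.3 percentage points.

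In the larger sets the shares lay on either side of their backgrounds. At the 184 distinct strongest ranked summits of microRNA genes, the PBC-Hox motif occurred in 11.4% of windows beside 14.8% of all 103200 ranked windows, the MEIS motif in 8.15% beside 7.39%, the Hox core in 6.52% beside 7.86%, and the B box core in 3.26% beside 1.97%. The GAGA motif occurred in 17.4% beside 11.8%. In the 300 bp from 250 bp before to 50 bp after the hairpin start, the PBC-Hox motif occurred in 16.1% of the 255 genes beside 23.3% of 46884 gene starts, and the Hox core in 10.2% beside 16.6%. The MEIS motif occurred in 10.6% beside 9.62%, the B box core in 2.75% beside 2.51%, and the GAGA motif in 23.1% beside 17.5%. The 46884 gene starts include those of piRNA genes, and no share without them was computed. The part of piRNA genes in these differences was not tested. The windows at microRNA summits were richer in G and C, with 40.6% ± 7.9 (SD over 184 windows) beside 38.3% ± 7.0 over all ranked windows, where the SD is that of single windows. The part of base composition in these shares was not tested, and a match is not evidence of binding.

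In the ranked list, 205 of the 255 microRNA genes (80.4%) had at least 1 summit within 1 kb, beside 68.6% of all genes, 85.2% of protein-coding genes and 85.3% of genes other than these and the piRNA genes. The remaining 50 had none, which means only that no listed peak lay there. Over the 205, the strongest signal had a median of 28.1, with quartiles of 23.1 and 34.9 and a range from 7.4 at mir-1817 to 73.5 at mir-55b. Over all 32210 genes with a ranked summit the median was 26.6, so that the microRNA median stood at percentile 56 of genes. For protein-coding genes the median was 27.1. The quartiles of all genes were 20.6 and 34.1.

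**Figure D2:**
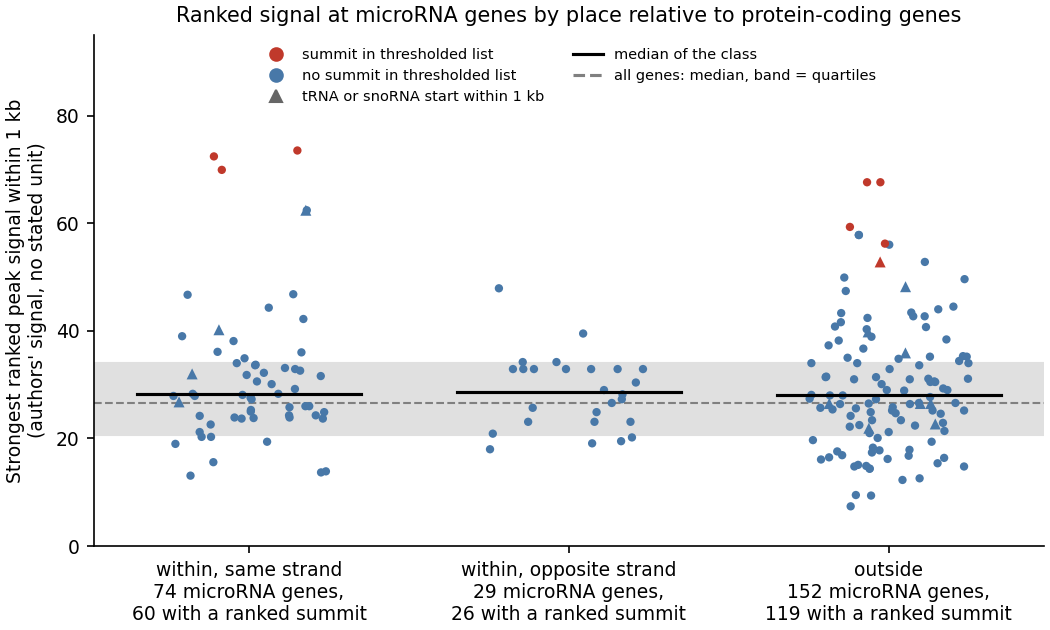
Strongest ranked peak signal within 1 kb (y axis, the authors' signal) for each microRNA gene with a ranked summit, in 3 classes by place relative to protein-coding genes. Red points have a thresholded summit, triangles have a tRNA or snoRNA start within 1 kb, black lines are class medians, and the grey band and dashed line are the quartiles and median of all genes. The 3 medians lie between 28.0 and 28.6, close to the all-gene median of 26.6.

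By place, the median was 28.2 over the 86 genes within protein-coding genes that had a ranked summit and 28.0 over the 119 outside. On the strand of the host it was 28.2 over 60 genes and on the opposite strand 28.6 over 26. The 13 genes with a tRNA or snoRNA start within 1 kb and a ranked summit had a median of 32.0 (range 21.9 to 62.4), beside 28.0 over the other 192. The highest of the 13 were mir-1829.3 (62.4), mir-239.2 (52.8) and mir-237 (48.2).

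By chromosome, the median was lowest on V (25.8 over 22 genes) and highest on III (31.5 over 19). Protein-coding genes also had their lowest median on V, at 26.1, but their highest on chromosome I, at 28.3. Chromosome X holds 71 of the 255 microRNA genes, with a median of 30.5 beside 27.0 for its protein-coding genes. Thresholded summits lay near 3 microRNA genes of X, 2 of II, 2 of III and 1 of I. There were 0 of 47 on IV and 0 of 28 on V, which allow shares of up to 6.38% and 10.7% (Wilson upper limits 7.56% and 12.1%), beside 3.41% and 1.56% of the protein-coding genes there.

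**Figure D3:**
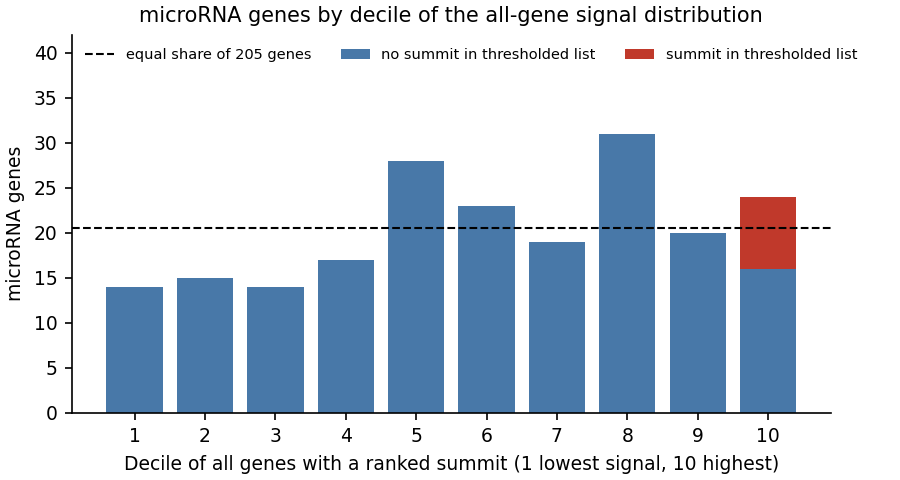
Number of microRNA genes (y axis) in each decile of the signal distribution of all genes with a ranked summit (x axis, 1 lowest and 10 highest). Red parts have a thresholded summit, and the dashed line is the 20.5 genes that an equal split of 205 would give. The counts run from 14 in the lowest decile to 31 in decile 8 and 24 in the highest, which holds all 8 genes with a thresholded summit.

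Of the 205 microRNA genes with a ranked summit, 117 were over the median of all genes, 24 were in the highest 10% and 14 in the lowest 10%. In 179 of them the -log10 IDR of the strongest peak was under 1. Of the 184 distinct strongest peaks, 132 had a microRNA gene of the set as the nearest gene start, 24 a protein-coding gene, 20 a noncoding RNA gene, 2 a tRNA gene and 1 a snoRNA gene. These peaks were chosen for lying within 1 kb of a microRNA start, so the first count is largely set by that choice. The summit lay upstream of the start in 107 genes and downstream in 98, at a median distance of 342 bp. Neighbouring microRNA genes often share a peak: 35 of the genes had a strongest peak in common with another, so genes of a cluster are not independent of each other.

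Among genes without a thresholded summit, the highest signals after 62.4 at mir-1829.3 and F39B1.3 were 57.8, shared by mir-2208.1 and mir-2209.2 on chromosome IV, and 56 at mir-249. mir-5549 followed at 52.8, mir-47 at 49.9, mir-800 at 49.6, mir-237 at 48.2 and mir-2217.2 at 47.9. In this group a higher signal did not always come with a higher -log10 IDR. The peak of mir-2208.1 and mir-2209.2 had a -log10 IDR of 0.73, or 1.69 between the replicates, with 24.1 in replicate 1 and 26.9 in replicate 2. The weaker peak of mir-5549 had 1.74, or 1.64 between the replicates, with 21.9 in replicate 1 and 30.5 in replicate 2. Its summit lay 21 bp upstream of the hairpin, and mir-5549 lies outside protein-coding genes with no tRNA or snoRNA start within 1 kb.

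The let-7 family times the change from larva to adult by repressing lin-41, hbl-1 and daf-12. All 7 listed genes had a ranked summit. None had a thresholded one, which allows a share of up to 42.9% (Wilson upper limit 35.4%), beside 3.07% of all genes. mir-241 had the highest signal, 47.4, with 25.8 in replicate 1 and 21.4 in replicate 2, at the percentile 92.6 of genes. mir-48, which lies near mir-241 on chromosome V, had 38.9, with 12.2 and 22.8. let-7 itself had 34.8, with 18.1 in replicate 1 and 19.7 in replicate 2, and a -log10 IDR of 0.32. mir-84 had 24.9 and mir-793 the lowest value, 16.5. mir-794 and mir-795 shared a peak of 31.4.

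The nearest thresholded summit lay 6.1 kb from mir-794, 7.2 kb from mir-795, 13.3 kb from mir-48 and 15.1 kb from mir-241. These distances were below the median of 40.9 kb over the 255 genes, but the summits lay closer to other genes. That of mir-794 and mir-795 lay 31 bp from the start of tRNA gene T07D10.t1. That of mir-48 and mir-241 lay 487 bp from the start of protein-coding vha-13. The nearest thresholded summit lay farther than the median from let-7 (59.6 kb), mir-793 (62.4 kb) and mir-84 (181.2 kb). In the lin-4 family it lay 57.4 kb from lin-4 and 1.4 kb from mir-237. At lin-4, the founding microRNA, which represses lin-14 and lin-28, the strongest ranked signal was 36.1, with 15.3 in replicate 1 and 12 in replicate 2. Its relative mir-237 had 48.2, with 32.1 in replicate 1 and 20.8 in replicate 2, and a tRNA start lay 361 bp from its hairpin. The part of that tRNA gene in the value was not tested.

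**Figure D4:**
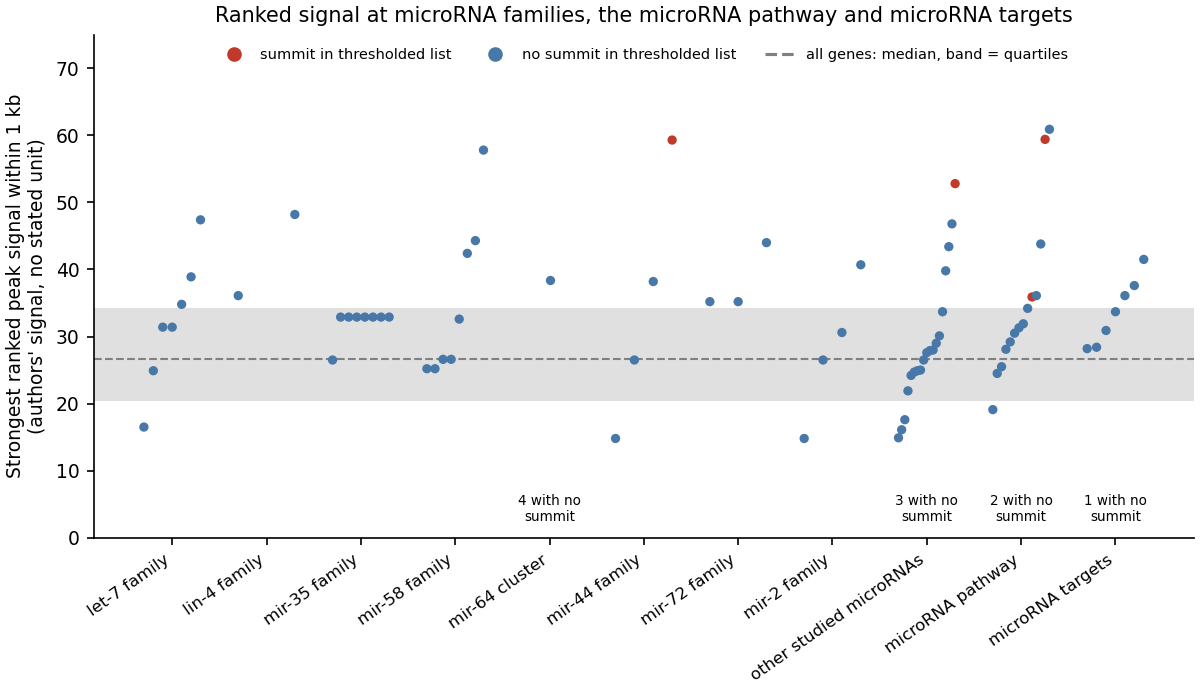
Strongest ranked peak signal within 1 kb (y axis, the authors' signal) for each gene of 8 microRNA families or clusters, other studied microRNAs, genes of the microRNA pathway and microRNA targets. Red points have a thresholded summit, the grey band and dashed line are the quartiles and median of all genes, and genes with no ranked summit are counted at the foot. Red points occur at mir-45 (59.3), mir-239.2 (52.8), cgh-1 (59.4) and xrn-2 (35.9).

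The clustered families mostly shared peaks. mir-35 to mir-41, embryonic microRNAs cut from hairpins side by side on chromosome II, had a single strongest peak of 32.9 in common, with 17.3 in replicate 1 and 21.9 in replicate 2. mir-42, mir-43 and mir-44 shared another of 26.5, with 14.2 and 10.6. In the mir-58 family, relatives of fly bantam of which 8 of 10 listed names were found, values ran from 25.2 to 57.8. The highest was mir-2209.2, followed by mir-58.1 at 44.3 (19.8 in replicate 1 and 28.4 in replicate 2) and mir-80 at 42.4 (31.3 and 20.4). The seeds of mir-58.1, mir-2209.2 and mir-2209.3 differ from that of mir-80. mir-58c shares the mir-80 seed and had 26.6, but was not among the 8 found. In the mir-64 cluster on chromosome III, mir-64, mir-65, mir-66 and mir-229 had no ranked summit, and mir-63, a relative by seed, had 38.4.

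The mir-44 family spanned a wide range. mir-45 had 59.3 and a thresholded peak, mir-61 had 38.2, mir-44 had 26.5 and mir-247 had 14.8. mir-247 shared that peak with mir-797 of the mir-2 family, where mir-250 had 40.7 and mir-2 had 30.6. Of the mir-72 list, mir-72 had 44.0, and mir-73 and mir-74 shared 35.2.

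Of 22 other studied microRNAs, 19 had a ranked summit (86.4%, beside 68.6% of all genes), with a median of 27.6. The share was 85.2% of protein-coding genes and 85.3% of genes other than the microRNA genes examined and the piRNA genes. That of the 22 is thus near these backgrounds. Only 1 of the 22 had a thresholded summit, mir-239.2 (4.55%, Wilson interval 0.807 to 21.8%, beside 3.07% of all genes). Without the microRNA genes examined and the piRNA genes, the thresholded share of genes was 4.27%. mir-243 had 46.8, mir-34, a stress-response microRNA, 43.4, and mir-239.1 39.8. mir-124, of ciliated sensory neurons, had 30.1, mir-71, a regulator of lifespan, 27.9, and muscle mir-1 26.5. No ranked summit lay within 1 kb of lsy-6, mir-228 or mir-67. The lowest were mir-75 (14.9), mir-83 (16.1) and mir-79 (17.6), all under the lower quartile of all genes, 20.6.

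Genes that make or serve microRNAs were set beside them. Of 16 pathway genes, 2 had a thresholded summit (12.5%, interval 3.5 to 36%, beside 2.75% of protein-coding genes). They were cgh-1, which encodes a germline RNA helicase, and xrn-2, which encodes an exonuclease that degrades mature microRNAs. cgh-1 had a signal of 59.4, with 23.8 in replicate 1 and 45.2 in replicate 2. xrn-2 had 35.9, with 23.3 and 33.3, and a -log10 IDR of 2.07. The highest signal in the list, 60.9, was that of nhl-2, whose peak fell short with a -log10 IDR of 1.86. The Argonaute genes alg-1 and alg-2 had 43.8 and 31.3, the Drosha gene drsh-1 28.1, and the Dicer gene dcr-1 19.1. pash-1 and xrn-1 had no ranked summit. Of 8 targets of lin-4, let-7 and lsy-6, none had a thresholded summit. That count allows a share of up to 37.5% (Wilson upper limit 32.4%), beside 2.75% of protein-coding genes. hbl-1 had 41.5, lin-41 37.6 and lin-28, which also counts as a pathway gene, 36.1.

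Host genes were examined because a microRNA in an intron can be made from the host transcript. The 74 microRNA genes on the strand of their host lay in 67 host genes. A thresholded summit lay within 1 kb of a host start in 3 of them (4.48%, beside 2.75% of all protein-coding genes): E01G4.3 with mir-4929, rps-20 with mir-354, and Y56A3A.7, which holds mir-86 and mir-8211. The last pair had no thresholded summit near their own hairpins. The summits at E01G4.3 and rps-20 are those of mir-4929 and mir-354 described above, and a count of 3 is small. The median strongest ranked signal at host starts was 31.6 over 53 genes, beside 27.1 for all protein-coding genes. All annotated starts of a gene were searched, and the part of the number of starts in these values was not tested.

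Replicate signals were compared at the strongest ranked peaks. Of 184 distinct peaks, 160 had a matched peak in both replicates. The median matched signal was 14.5 in replicate 1 and 15.4 in replicate 2, and replicate 2 was higher in 97 of 160 peaks (60.6%), beside 64.7% of all 77906 nuclear matched peaks. Across the 160 peaks the replicates' log2 signals had a Pearson correlation of 0.19 and a Spearman correlation of 0.15, given as a description over peaks of the same 2 libraries. Over all nuclear matched peaks the values were 0.28 and 0.22. The order of these peaks was thus only weakly shared between the replicates.

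**Figure D5:**
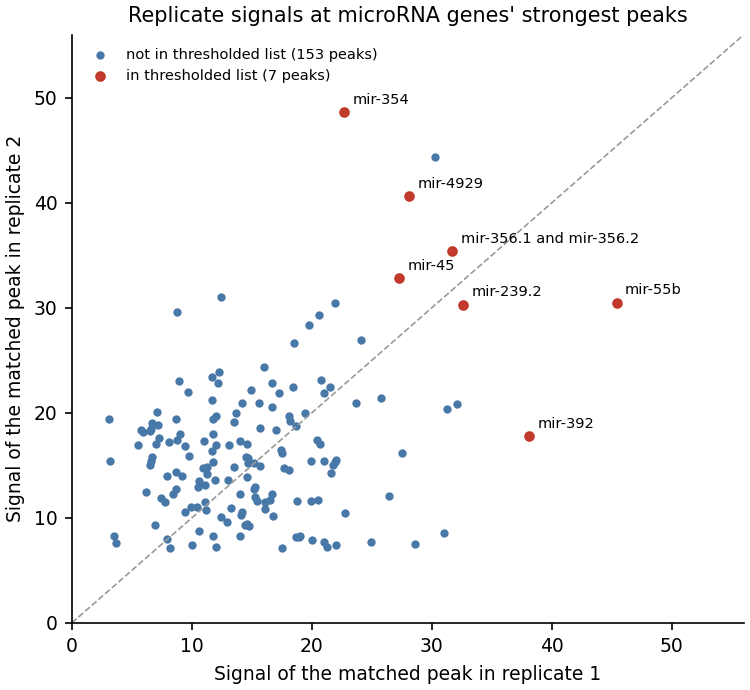
Signal of the matched peak in replicate 1 (x axis) and replicate 2 (y axis) for the 160 strongest peaks of microRNA genes found in both, in the authors' units. Red points are the 7 peaks of the thresholded list, and the dashed line marks equal signals. The red peaks lie from 22.7 to 45.4 in replicate 1 and from 17.8 to 48.6 in replicate 2, towards the upper right of the cloud.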

How the data were processed

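The authors deposited ranked and thresholded peak lists per replicate and for both replicates together, and a conservative list; the coordinates are on ce11, per the file headers deposited with the samples. The aligner and peak caller were not given in the sources used here. Each peak's signal is the authors' own, with no stated unit, and the −log10 IDR is also as the authors deposited it. Depth is unknown, since none of the lists gives read counts. In the ranked list that the conservative list follows, the matched signal columns were taken for replicates 1 and 2, since 35740 first peaks recurred exactly in replicate 1's own list (0 second peaks did) and 41183 second peaks in replicate 2's (0 first peaks did). In the ranked list that the main thresholded list follows, no matched peak recurred in either. All 867 thresholded peaks are among its 1014 past an IDR of 0.01.

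Summits were compared with Ensembl release 115 starts within 1 kb, with pandas 2.3.3 and numpy 2.4.6. The microRNA genes and lists were chosen with earlier results of these data known. Named genes are all with a thresholded summit, the 10 strongest without one, the 10 strongest outside protein-coding genes with no small RNA neighbour, and listed families, pathway and target genes. Medians, counts and Wilson intervals are descriptions. The scan was tested on simulated peaks. The alternatives were other windows, lists and distances, and the lists of each replicate alone.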

Additional observations from a re-analysis of the deposited data

How the results depend on the processing

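The count of microRNA genes with a thresholded summit, 8, was 6 with a 500 bp window, 9 with the conservative list, and 8 by peak overlap, by distance from the gene body or with the ends of the mature arms as starts. With a 2 kb window it was 15, of which 5 lay within protein-coding genes and 10 outside, while the share of all genes went from 3.07% to 4.51%. With the conservative list the count within protein-coding genes was 5. With the list of a single replicate it was 1 in each case; the counts without a small RNA neighbour were also 1 to 1, those within protein-coding genes 0 to 1, and those outside 0 to 1. The single genes were mir-45 without replicate 2 and mir-354 without replicate 1. Those lists hold 296 and 287 peaks against 867.

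The median ranked signal, 28.1, was 25.4 with a 500 bp window and 31.8 with a 2 kb window. It was 28.0 with 1 gene per run of neighbours and 25.7 with genes lacking a ranked summit at 0. With a single replicate's list it was 17 to 17.1. Signals of all genes were also lower there, with medians of 15.6 in replicate 1 and 16.6 in replicate 2, beside 26.6 in the main ranked list. The percentile of the microRNA median among genes was 56, or 53.0 to 60.5 with a single replicate's list and 54.4 to 57.8 with the other windows. With genes lacking a summit at 0 it was 63.3. That setting covered all genes, piRNA genes included, of which 68.6% had a ranked summit. The share was 80.4% of the 255 genes and 85.3% of genes other than these and the piRNA genes. No paired analysis was possible because there was 1 group and no test.

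Without read counts, no depth limit can be given for a single gene. The hairpin end stands in for the start of the primary transcript, so a peak at a distant start would be missed. The alternatives without mir-55b and with the ends of the mature arms were added after the data were seen. The cause of each shift was not tested, except that a wider window takes in more summits by construction.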
